A study of Mus musculus with 26 samples.

Results

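RNA held by hnRNPK in nuclear extracts of mouse liver was compared between C57BL/6J mice on a high-fat diet and C57BL/6J mice on a normal diet (wild type). The comparison rests on the 4 libraries whose titles mark them as nuclear immunoprecipitates (IP) of these mice, 2 on each diet, out of 26 libraries in the series. The 2 nuclear IP libraries of ob/ob mice (B6.V-Lepob/J, leptin-deficient, normal diet) entered the test only to estimate the spread. Total liver RNA of the same mouse groups and 1 nuclear library from control IgG beads, made from mixed strains and diets, were set beside the result. Salt extracts of liver nuclei had been cleared over IgG beads before the antibody was added, and every library was made from the same mass of RNA, per the labels' protocols. The labels give neither age, sex nor the length of the diet. Nothing in them says that replicates came from separate animals, and the p-values given reflect the spread among these samples alone, which may be technical.

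hnRNPK is an RNA-binding protein with KH domains that prefers C-rich stretches of RNA. It moves between nucleus and cytoplasm and takes part in splicing, transcript stability and translation. In mice, prolonged high-fat feeding leads to lipid storage in hepatocytes. The study's design asks whether RNA held by hnRNPK differs with obesity. Counts were deposited for transcripts with UCSC-style identifiers grouped into numbered clusters, and neither the files nor the reference tables used here pair these identifiers with gene symbols. For that reason 2 clusters that rose and 2 that fell carry the identifier of a transcript, the one most counted over all libraries used, whose length is also given as that of the cluster, and the others are described by their values, length and counts. The transcript of hnRNPK itself and markers of liver cell types could not be looked up for the same reason.

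The high-fat nuclear IP libraries held 6780881 and 5336063 counts, against 10581097 and 8834171 in wild type. A few RNAs filled much of each library. The 3 most counted clusters together took 43.0% and 60.2% of the counts in the high-fat libraries, against 24.5% and 28.8% in the wild-type libraries. In the total RNA units of these mice the same 3 clusters took 1.24% and 1.65% on high-fat diet, against 1.34% and 2.03% in wild type. Nuclear IgG had 21.6%, and the groups of IP libraries did not overlap. High-fat replicate 2 stood apart as the shallowest and the most concentrated library. Levels are given as counts-per-million (CPM), which were scaled for composition with TMM, whose factors were 0.950 and 0.665 in high-fat diet and 1.17 and 1.06 in wild type. Across the 11531 clusters tested, Pearson's r of log2 CPM was 0.956 between the high-fat libraries and 0.964 between the wild-type libraries. It was 0.931 to 0.954 between libraries of different diets, a description over clusters that share libraries.

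Each of the 3 most counted clusters had a higher composition-scaled estimate in high-fat diet without passing the threshold. The first, a single-isoform cluster of 5818 nt, took 29.5% and 41.2% of the counts in high-fat diet, against 18.6% and 21.6% in wild type. Its estimate was 1.35 ± 0.42 (log2 fold change ± SE, adjusted p = 0.14 by edgeR). The second, of 532 nt, took 8.48% and 11.96% in high-fat diet, against 3.68% and 4.60% in wild type, with an estimate of 1.84 ± 0.40 (adjusted p = 0.065 by edgeR). The third, of 3881 nt, took 4.95% and 7.07% in high-fat diet, against 2.20% and 2.64% in wild type, with 1.86 ± 0.39 (edgeR adjusted p = 0.059). By library size alone the second and the third passed, with log2 fold changes of 1.30 ± 0.41 and 1.31 ± 0.41 (edgeR adjusted p = 0.031 and 0.028), and the first did not, with 0.81 ± 0.42 (0.19). In total RNA the log2 estimates of these clusters were -0.31, -0.46 and -0.43.

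Among the 11531 of 31469 clusters with enough counts to test, 50 rose and 24 fell in the nuclear IP on high-fat diet. These 74 clusters are 0.642% of those tested, 0.434% higher and 0.208% lower. The median log2 fold change was 1.49 among the clusters that rose, with a range of 0.91 to 3.80, and -1.59 among those that fell, with a range of -4.62 to -0.98. Over all clusters tested the median was 0.00 and the median absolute log2 fold change 0.34. A change of at least 2-fold was estimated for 69 of the 74, 46 higher and 23 lower, which is 0.598% of clusters tested. A further 15282 clusters had no count in any of the 4 libraries, and no cluster had at least 10 counts in both libraries of one diet and 0 in both of the other. In tissue RNA, fewer cells of a type and less RNA per cell cannot be told apart.

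Clusters counted as changed when their Benjamini-Hochberg adjusted p from edgeR's quasi-likelihood test was under 0.05. Leaving out either high-fat library lowered the number of clusters that passed, and leaving out either wild-type library raised it. The cause of this was not tested. Of the 74, 4 passed in each of these fits, all of them higher. With only the 4 libraries compared in the fit, 17 passed, 14 higher and 3 lower.

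**Figure D1:**
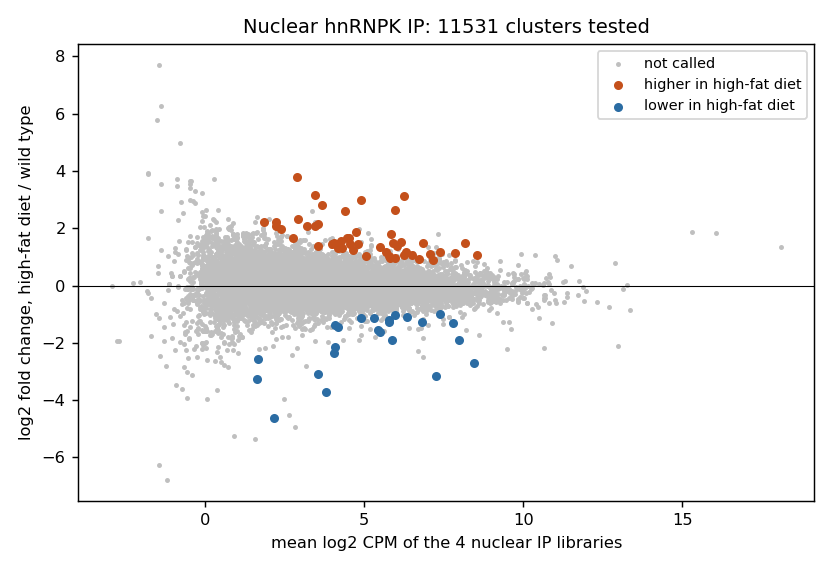
Log2 fold change (high-fat diet over wild type, vertical axis) against the mean log2 CPM of the 4 nuclear IP libraries (horizontal axis), 1 point per cluster. The 50 clusters called higher and the 24 called lower are coloured, and the 3 points at the far right above 0 are the 3 most counted clusters, which were not called.

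Cluster uc011zcf.1 had the largest rise among called clusters. Its nuclear IP levels were 26.6 and 32.4 CPM on high-fat diet, against 3.07 and 0.966 CPM in wild type. Both high-fat libraries lay far above both wild-type libraries. The estimate was 3.80 ± 0.45 (log2 fold change ± SE, adjusted p = 0.0089 by edgeR). This cluster holds 9 isoforms, and the one of 6665 nt took 168.82 and 114 counts in the high-fat libraries, against 30 and 8 in the wild-type libraries, most of the cluster's counts in each. In total RNA it had 31.2 and 46.4 CPM on high-fat diet, against 5.40 and 2.46 CPM in wild type, so the direction was the same there, with a log2 estimate of 3.30 ± 0.43. The ob/ob nuclear IP libraries, on normal diet, had 1.48 and 3.00 CPM, within the wild-type range. Without high-fat replicate 1 or 2 it was not called (edgeR adjusted p = 0.073 and 0.10), and its estimate was 4.89 with wild-type replicate 1 left out and 3.26 with wild-type replicate 2 left out.

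Cluster uc008day.2 had the second largest rise, with the closest replicates of the 4 named clusters. It had 32.5 and 32.7 CPM on high-fat diet, against 3.63 and 3.54 CPM in wild type, an estimate of 3.18 ± 0.25 (log2 fold change ± SE, adjusted p = 7.5e-04 by edgeR). Of its 2 isoforms, the one of 4562 nt took 209 of 209 and 106.46 of 116 counts in the high-fat libraries, against 37.33 of 45 and 33 of 33 in the wild-type libraries, so the isoform that names the cluster had few or none. Total RNA had 89.4 and 98.1 CPM on high-fat diet, against 27.5 and 10.0 CPM in wild type, again in the same direction, with 2.32 ± 0.44 on the log2 scale. Its ob/ob nuclear IP libraries had 19.6 and 26.2 CPM, above wild type and below high-fat diet. It remained called when any one of the 4 libraries was left out, with log2 fold changes of 3.17 to 3.19.

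Cluster uc008qqb.1, a single isoform of 1607 nt, had the largest fall. It had 1.09 and 0.846 CPM on high-fat diet, from 7 and 3 counts, against 41.9 and 7.51 CPM in wild type, from 519 and 70 counts. The wild-type libraries differed widely from each other, and both were above both high-fat libraries. The estimate was -4.62 ± 0.84 (log2 fold change ± SE, adjusted p = 0.045 by edgeR), and leaving out wild-type replicate 1 gave -2.90, wild-type replicate 2 -5.36. It was not called without either high-fat library (edgeR adjusted p = 0.29 and 0.33) or with only the 4 libraries in the fit (0.081). In total RNA it had 0.713 and 0.924 CPM on high-fat diet, against 4.54 and 8.28 CPM in wild type, a log2 estimate of -2.97 ± 0.37. The ob/ob nuclear IP libraries, on normal diet, had 0.494 and 0.240 CPM, from 3 and 2 counts, too few to rank against the high-fat libraries.

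Cluster uc008ues.1, a single isoform of 2395 nt, fell as well. Its levels were 2.18 and 6.49 CPM on high-fat diet, against 37.4 and 66.0 CPM in wild type. The diets did not overlap, and the estimate was -3.71 ± 0.45 (log2 fold change ± SE, adjusted p = 0.0095 by edgeR). Total RNA had 12.4 and 9.37 CPM on high-fat diet, against 99.0 and 109 CPM in wild type, with -3.26 ± 0.27 on the log2 scale. The ob/ob nuclear IP libraries had still less, 0.658 and 1.2 CPM. Without high-fat replicate 1 it was not called (edgeR adjusted p = 0.11, log2 fold change -2.99). Leaving out high-fat replicate 2 gave -4.56, leaving out wild-type replicate 1 gave -4.07, and leaving out wild-type replicate 2 gave -3.23.

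**Figure D2:**
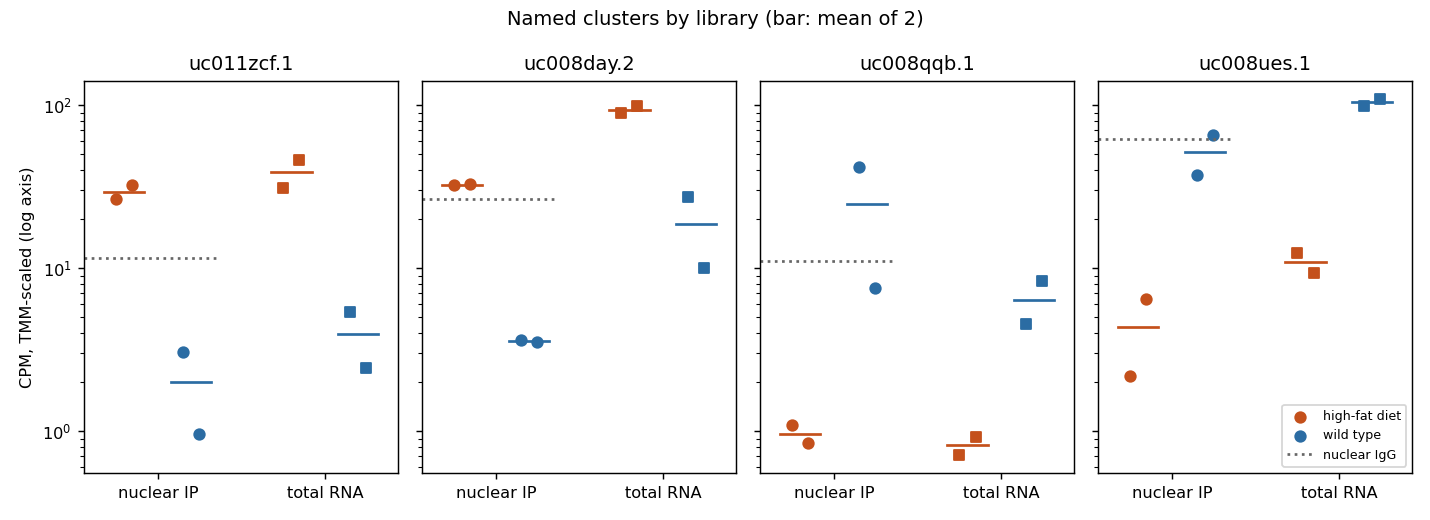
TMM-scaled CPM (log axis) of the 4 named clusters in nuclear IP (circles) and total RNA (squares), with high-fat diet left of wild type, 1 point per library or unit and a bar at the mean of 2; the dotted line is the single nuclear IgG library. In all 4 panels the diets are separated the same way in nuclear IP and in total RNA. The kinds of RNA were scaled separately, so heights compare diets within each kind.

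The 74 called clusters, the named ones among them, covered a wide range of abundance and length. Per unit length, the clusters that rose had a median of 31.8 transcripts-per-million (TPM) over the 4 libraries (range 1.60 to 1606), those that fell 32.7 TPM (1.12 to 349.6), and all clusters tested 8.17 TPM. The median length was 1816 nt among those that rose and 2976 nt among those that fell, against 2756 nt over all tested. Of the 50 that rose, 24 had a single isoform, as did 12 of the 24 that fell and 32.8% of all tested. Some of these clusters were singled out after their values were seen. The smallest p belonged to a cluster of 3069 nt and 2 isoforms with 140 and 169 CPM on high-fat diet, against 23.3 and 26.2 CPM in wild type and 167 CPM in nuclear IgG, an estimate of 2.64 ± 0.20 (log2 fold change ± SE, adjusted p = 7.5e-04 by edgeR). The called cluster with the highest TPM was 292 nt long. This short RNA had 349.5 and 337 CPM on high-fat diet, against 162 and 151 CPM in wild type, an estimate of 1.13 ± 0.17 (log2 fold change ± SE, adjusted p = 0.026 by edgeR). In both clusters, the high-fat nuclear IP libraries lay above the wild-type libraries with close replicates. Nuclear IgG had 199 CPM of the 292 nt cluster. In total RNA the 292 nt cluster had 109 and 115 CPM on high-fat diet, against 121 and 174 CPM in wild type, the opposite direction. The 3069 nt cluster had 88.5 and 22.6 CPM there, against 7.30 and 12.6 CPM in wild type, the same direction as in the IP.

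The direction in the matching total RNA was the same for all 24 clusters that fell and for 36 of the 50 that rose, 81.1% of the 74. Over all 11470 clusters tested in both, 61.7% had the same direction. That share was 60.9% where the nuclear IP estimate was above 0 and 62.6% where it was below 0. In total RNA both high-fat units lay below both wild-type units for all 24 clusters that fell, against 21.7% of clusters over all. They lay above for 25 of the 50 that rose, against 21.2%, and below for 10 of these 50. The median log2 change in total RNA was -0.98 for the clusters that fell and 0.34 for those that rose. No cluster (0%) passed in total RNA with edgeR, where 1528 of 15486 clusters had an unadjusted p under 0.05 and DESeq2 called 320, so these directions are estimates and not calls. The change was larger in the nuclear IP than in total RNA for 49 of the 50 clusters that rose and 23 of the 24 that fell, and over all clusters for 8613 of 11470. The clusters were chosen for a large change in the IP, so this count is fixed in part by the choice.

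Replicates with the same number moved together in nuclear IP and total RNA of wild type, with Pearson's r of 0.506 across clusters for the difference between replicate 1 and 2. In high-fat diet this r was -0.144, and in ob/ob it was 0.369. The part of this in the shared direction was not tested. Without wild-type replicate 1 the share with the same direction was 88.9% of the clusters called then, and 80% without wild-type replicate 2, where 80 passed. With under 20 calls it was taken over clusters at an unadjusted p under 0.05, and was 72.2% without high-fat replicate 1 and 73.5% without replicate 2. Across all 11470 clusters, the log2 fold changes of nuclear IP and total RNA had Pearson's r of 0.498 and Spearman's rho of 0.363, given as a description.

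**Figure D3:**
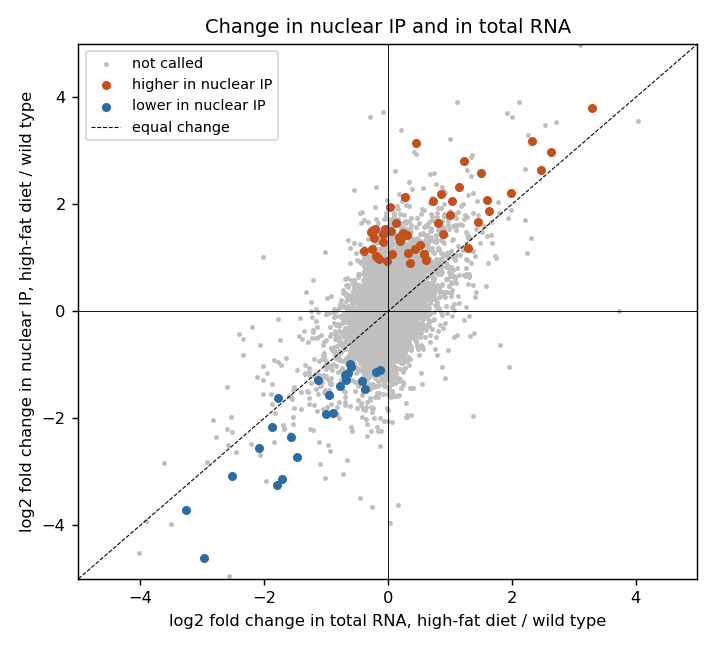
Log2 fold change (high-fat diet over wild type) in nuclear IP (vertical axis) against total RNA (horizontal axis), 1 point per cluster, with the line of equal change dashed; 9 clusters beyond 5 on either axis are not shown. The 24 called lower lie left of 0 in total RNA, while the 50 called higher include a group near or left of 0.

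The total RNA estimates of the clusters that rose covered a wide range. They are described here by a bound of 0.5 on the log2 scale, set after the values were seen, and none of the total RNA estimates on either side of it passed the edgeR test. In 28 of the 50 the total RNA estimate was within 0.5 of 0, with a median of 0.01, while the nuclear IP had a median log2 fold change of 1.38 (0.91 to 3.14). In the other 22 it was 0.5 or more, with a median of 1.19 against 2.07 in the nuclear IP. Among the 24 that fell, 20 had a total RNA estimate of -0.5 or less (median -1.30, nuclear IP -1.91) and 4 were within 0.5. Of the 28 clusters within the bound, 11 were shorter than 1000 nt, and of the 22 beyond it 5 were. Over all 11531 clusters tested, 160 were under 500 nt and 800 from 500 nt to just under 1000 nt. The median length was 1446 nt in the 28 and 2741 nt in the 22.

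A single-isoform cluster of 488 nt had the smallest p for a difference from total RNA among those that rose. Its nuclear IP levels were 35.1 and 29.9 CPM on high-fat diet, against 12.5 and 9.76 CPM in wild type, an estimate of 1.55 ± 0.23 (log2 fold change ± SE, adjusted p = 0.026 by edgeR). In total RNA it had 30.1 and 30.2 CPM on high-fat diet, against 32.3 and 37.1 CPM in wild type, slightly lower in both high-fat units. Among those that fell, the smallest such p belonged to a cluster of 2031 nt with 55.9 and 54.4 CPM on high-fat diet, against 122 and 113 CPM in wild type. It had 43.1 and 44.6 CPM in total RNA on high-fat diet, against 47.0 and 48.7 CPM in wild type. Neither difference passed when tested across all clusters, with edgeR adjusted p of 0.070 and 0.12.

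Whether the nuclear IP changed more or less than total RNA was tested as a difference of differences over 12 nuclear IP and total RNA units. With edgeR 0 of 15175 clusters (0%) passed, 1645 had an unadjusted p under 0.05, and DESeq2 called 381, of which 245 were higher in the IP and 136 lower. The named clusters had differences of 0.50 ± 0.65 for uc011zcf.1, 0.86 ± 0.52 for uc008day.2, -1.65 ± 1.12 for uc008qqb.1 and -0.46 ± 0.59 for uc008ues.1 (log2, SE). Each had an edgeR adjusted p over 0.5 in that test. By this edgeR test no single cluster was shown to change in the nuclear IP apart from total RNA. The fit did not pair IP and total RNA units with the same replicate number, so variation that such units share stayed in its error. In simulated counts the same test found 10 and 14 of 50 clusters set to log2 differences of -1 and 1. It found 43 and 44 of 50 set to -2 and 2, so 2-fold differences can be missed. The simulation gave clusters of like abundance the same spread, and each cluster 1 mean share in IP and total RNA. Real clusters with a wider spread, such as uc008qqb.1 with an SE of 1.12, can be missed at larger differences.

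The cytoplasmic IP of the same mouse groups, made from another extract of the liver, had an estimate in the same direction for 46 of the 50 clusters that rose and 23 of the 24 that fell. Over all clusters tested in both, 57.2% of those above 0 and 63.1% of those below 0 in the nuclear IP had the same direction there. Both high-fat cytoplasmic libraries lay above both wild-type libraries for 36 of the 50, against 23.8% over all, and below for 22 of the 24, against 24.4%. In the cytoplasmic fit 7 of 11901 clusters passed the edgeR test, so most of these directions are estimates and not calls. The labels do not say whether the cytoplasmic and nuclear extracts came from the same animals. Of the 28 clusters that rose in the nuclear IP with total RNA within 0.5, 26 had a cytoplasmic estimate above 0, with a median of 0.39 on the log2 scale. Cluster uc011zcf.1 had 32.8 and 26.4 CPM in the cytoplasmic IP on high-fat diet, against 1.82 and 1.86 CPM in wild type. Cluster uc008ues.1 had 4.08 and 1.71 CPM there on high-fat diet, against 33.6 and 63.3 CPM in wild type.

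The nuclear IgG library is named IgG by its title, while its molecule label reads hnRNPK-bound as in the IP libraries. It is a single library, so no test was made. Pearson's r of log2 CPM with IgG was 0.946 and 0.926 for the high-fat libraries and 0.922 and 0.921 for the wild-type libraries. With total RNA of the same mouse group, r was 0.789 to 0.800 for all 4. Of the 50 clusters that rose, 34 lay above IgG in both high-fat libraries and 2 in both wild-type libraries. Of the 24 that fell, 2 lay above IgG in both high-fat libraries and 16 in both wild-type libraries. Over all clusters tested the shares were 38.8% for high-fat diet and 41.3% for wild type. The 50 and the 24 were chosen for a difference between these same libraries, so their counts above IgG are fixed in part by the choice. IgG had 11.5 CPM of uc011zcf.1, 26.4 of uc008day.2, 11.1 of uc008qqb.1 and 61.9 of uc008ues.1. The IgG library came from mixed mice, and what part RNA held by control beads has in these changes was not tested.

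How much of the result depends on scaling was examined with the same edgeR test. By library size alone the median over all clusters was -0.46 in place of 0.00, and 883 clusters passed, 62 higher and 821 lower, against 50 higher and 24 lower with TMM. Relative to the wild-type mean, the median log2 CPM by library size was -0.22 in high-fat replicate 1 and -0.73 in high-fat replicate 2. In these libraries the 3 most counted clusters took 43.0% and 60.2% of the counts. All 24 clusters that fell and 26 of the 50 that rose still passed by library size. The size factors of DESeq2, upper quartile factors and TMM without the most counted cluster called 76, 103 and 74 clusters, and each of these held all 74. CPM are shares of a library, and whether a high-fat nuclear extract held more or less RNA in all was not measured.

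**Figure D4:**
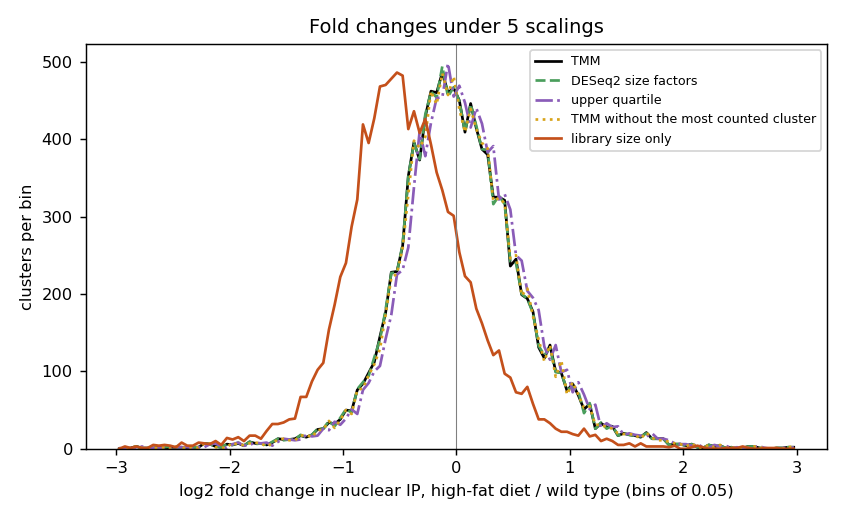
Number of clusters per bin of 0.05 (vertical axis) over the log2 fold change in nuclear IP, high-fat diet over wild type (horizontal axis), under 5 scalings. The library-size curve lies to the left, with a median of -0.46, while the other 4 nearly coincide around 0.

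Fold changes also varied with the level and the length of the RNA. By mean log2 CPM over the 4 libraries, the median estimate (log2) was 0.15 ± 0.17 under 1 and 0.14 ± 0.04 from 1 to 3 (SD between libraries). It was -0.02 ± 0.01 from 3 to 5, -0.11 ± 0.02 from 5 to 7 and -0.14 ± 0.03 at 7 or more. Whether the patterns by level and by length are separate was not tested. In the 160 clusters under 500 nt the median estimate (log2) was 0.23 ± 0.13 in the nuclear IP (SD between libraries), and in the 409 clusters of 8000 nt or more it was -0.11 ± 0.10. The classes between lay in order, and the rank correlation with length (Spearman's rho over all clusters) was -0.131, given as a description. In total RNA the order was the other way, with a median of -0.20 ± 0.16 under 500 nt and 0.07 ± 0.09 at 8000 nt or more, and a rho of 0.206. The difference between the outer classes in the nuclear IP, 0.35, compares with a spread between replicates of 0.21, and it was 0.21 to 0.49 when a replicate was left out. Among clusters under 500 nt 6 rose and none fell, 3.75% of that class. Of those of 8000 nt or more, 1 fell and none rose, 0.244%.

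**Figure D5:**
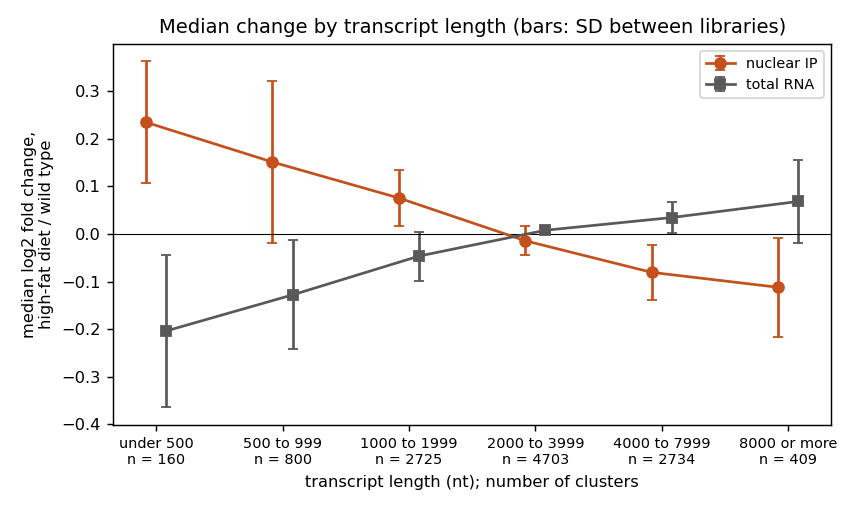
Median log2 fold change (high-fat diet over wild type, vertical axis) by class of transcript length in nt (horizontal axis), for nuclear IP and total RNA, with bars for the SD between libraries. The nuclear IP medians run downward with length and the total RNA medians upward, from 0.23 and -0.20 under 500 nt to -0.11 and 0.07 at 8000 nt or more, and several bars reach 0.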

How the data were processed

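The authors deposited 1 RSEM table per library with expected counts and TPM for 59121 transcripts in 31469 clusters, per the file headers. The submitters' processing notes name RSEM 1.2.8, TopHat2 2.0.10, Bowtie2 2.1.0, bcl2fastq, SAMtools and mm10, without roles. Strandedness and annotation are not given in the sources used here. RSEM divides reads among similar or overlapping transcripts, so clusters that share sequence, and antisense pairs, are uncertain. The deposited estimated counts were summed per cluster and rounded; the 2 total RNA libraries with 1 replicate number were summed as runs of the same RNA, which the labels do not state. The deposited TPM were averaged for levels only, and transcript length came from the same tables.

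Tests used edgeR 4.0.16 with limma 3.58.1 in R 4.3.3: filterByExpr, TMM, a mean per group, quasi-likelihood test, Benjamini-Hochberg over all clusters tested. The nuclear IP fit held 6 libraries, the total RNA fit 6 units and the difference 12 units. Standard errors were taken as the size of the log2 fold change over the root of the F statistic. DESeq2 1.42.0 was an alternative. Scripts were tested on simulated counts. Total RNA units held 64209074 to 80521187 counts and nuclear IgG 3116781, so rare clusters are poorly measured in the IP.

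Named clusters were to be the 15 highest and 15 lowest called with symbols; without symbols, the 2 with the largest and the 2 with the lowest log2 fold change among called clusters whose log2 CPM averaged 1 or more and whose diets did not overlap. Gene lists and markers could not be used without symbols. Members and lists were chosen with earlier results of these data known. The cytoplasmic IgG library was not used.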

Additional observations from a re-analysis of the deposited data

How the results depend on the processing

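No called cluster changed direction, which the choice of clusters largely fixes: all 74 had diets that did not overlap and a log2 fold change of at least 0.91 in size. With at least 10 CPM in 2 libraries 5 of them were not measured. The count of calls was 883 by library size only, 850 with no filter on low counts (412 higher, 438 lower), 331 with DESeq2 (192 higher, 139 lower), 17 with only the 4 libraries compared, 727 with all 18 units of IP and total RNA (303 higher, 424 lower), and 6 to 380 without 1 replicate. The cause of these differences was not tested. The median of all clusters was -0.46 by library size, 0.052 with upper quartile factors, -0.011 with at least 10 CPM in 2 libraries, 0.011 with only 4 libraries, and -0.033 to 0.027 without 1 replicate. The share with the same direction in total RNA was 65.4% by library size, over 883 calls, and 72.2% to 88.9% without 1 replicate. The length difference stayed above 0 in every setting run, at 0.212 to 0.490 without 1 replicate. In total RNA DESeq2 called 320 clusters, taking every total RNA library as a replicate gave 2001, and 0 to 1177 without 1 replicate, the most without wild-type replicate 1. The difference between nuclear IP and total RNA called 381 with DESeq2, 8 without a filter, 3 at 10 CPM, 4 with all 18 units, and 0 to 2 without 1 replicate.

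With a replicate block 140 clusters passed in the nuclear IP, 89 higher and 51 lower, among them all 74, and 0 in total RNA and in the difference. The numbers were not taken to pair libraries across diets: the replicate differences of high-fat diet and wild type had Pearson's r of -0.044 in the nuclear IP, and the labels give the numbers no meaning. Between nuclear IP and total RNA of 1 group, r was -0.144 in high-fat diet, 0.506 in wild type and 0.369 in ob/ob. Fits without 1 library leave a single one in a group, which is assumed to vary like the others. Low counts limit uc008qqb.1, with 7 and 3 counts on high-fat diet.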

Other observations

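The 3 most counted clusters took 19.3% and 40.2% of the counts in the cytoplasmic IP on high-fat diet, against 28.5% and 16.3% in wild type, so there the diets overlapped, and high-fat replicate 2 was the highest of the cytoplasmic libraries as of the nuclear ones. In the ob/ob nuclear IP libraries they took 34.3% and 33.4%.

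Clusters were also sorted by their level in ob/ob nuclear IP over ob/ob total RNA, which uses none of the 4 libraries compared. This ratio was taken by library size, without TMM, and its median over all clusters tested was -0.20 on the log2 scale. The bounds of the classes depend on that scaling. The 2980 clusters at least 2-fold under-represented in the ob/ob IP had a median log2 fold change of 0.16 ± 0.06 between high-fat diet and wild type (SD between libraries), and the 1554 at least 2-fold over-represented -0.01 ± 0.06. The classes between had -0.03 ± 0.02 on the under-represented side and -0.08 ± 0.02 on the over-represented side, so the medians did not follow the order of the classes. Of the first class 18 rose and 8 fell, 0.872%, and of the most over-represented 8 rose and 3 fell, 0.708%, both near the 0.642% over all clusters tested.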
